A study of Homo sapiens with 6 samples.

Results

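The genes described here are 9 genes of plasminogen activation and of serine peptidases at or near the cell surface, of 30651 genes in the count table. They comprise 6 peptidases (PLAU, PLAT, ST14, HTRA3, PRSS3 and DPP4), the receptor PLAUR and the inhibitors SERPINE2 and SPINT1. They were chosen by name with their differences between the groups already known, so those differences are described here without a test. The genes were measured by RNA sequencing of PC-3 cells, an established human prostate cancer line derived from bone metastasis, in 3 libraries labelled Ctrl and 3 labelled MTA1. The latter appear as shMTA1 in the tables, the usual notation for a short hairpin against MTA1, which encodes a subunit of a chromatin-remodelling complex, and the protocol names lentivirus and selection of stable clones. The number of hairpins and clones is unknown here. Nothing states that the libraries were separate cultures, so the p-values rest on a library-to-library spread that may be technical.

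Plasminogen is a circulating zymogen that urokinase (PLAU) and tissue-type activator (PLAT) cut into plasmin, a broad protease that digests fibrin and matrix proteins. PLAUR anchors urokinase to the cell surface, and serpins such as SERPINE2 trap the activators in inactive complexes. Matriptase (ST14), a membrane-spanning serine protease of epithelia, can activate pro-urokinase and the precursor of hepatocyte growth factor, and is held in check by the Kunitz inhibitor SPINT1. HTRA3 is a secreted serine protease, PRSS3 encodes mesotrypsinogen, a trypsin that cleaves protein inhibitors of other trypsins, and DPP4 is a membrane peptidase that trims dipeptides from chemokines and incretins.

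RefSeq promoter sequences (GRCh38.p14) were found for 7 of the 9 genes, and 5 are shown because these genes stood farthest apart between the groups among those with an entry. Each run holds the 250 bases before the annotated start, written 5′ to 3′. Capitals mark matches, on either strand, to the AP-1 motif TGANTCA, the GC box GGGCGG, the hypoxia response core ACGTG and the TATA box TATAAA. For SERPINE2 the start nearer the gene's end is shown, 1 of 2 in the table.
PLAUR (chr19:43670170-43670419, minus strand): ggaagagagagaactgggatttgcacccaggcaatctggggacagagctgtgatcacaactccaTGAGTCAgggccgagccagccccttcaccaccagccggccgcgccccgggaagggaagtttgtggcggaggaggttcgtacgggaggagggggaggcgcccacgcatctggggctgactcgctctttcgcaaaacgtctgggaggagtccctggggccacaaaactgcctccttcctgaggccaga
PRSS3 (chr9:33795311-33795560, plus strand): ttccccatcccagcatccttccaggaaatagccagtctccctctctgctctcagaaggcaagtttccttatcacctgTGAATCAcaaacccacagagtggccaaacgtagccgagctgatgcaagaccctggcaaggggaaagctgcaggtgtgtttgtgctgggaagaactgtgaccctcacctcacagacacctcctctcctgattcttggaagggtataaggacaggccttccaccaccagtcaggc
DPP4 (chr2:162074216-162074465, minus strand): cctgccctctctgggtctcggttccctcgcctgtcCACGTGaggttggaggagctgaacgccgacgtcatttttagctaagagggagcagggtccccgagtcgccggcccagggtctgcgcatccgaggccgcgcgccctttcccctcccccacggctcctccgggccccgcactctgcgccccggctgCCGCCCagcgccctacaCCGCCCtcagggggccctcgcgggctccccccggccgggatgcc
SERPINE2 (chr2:224031479-224031728, minus strand): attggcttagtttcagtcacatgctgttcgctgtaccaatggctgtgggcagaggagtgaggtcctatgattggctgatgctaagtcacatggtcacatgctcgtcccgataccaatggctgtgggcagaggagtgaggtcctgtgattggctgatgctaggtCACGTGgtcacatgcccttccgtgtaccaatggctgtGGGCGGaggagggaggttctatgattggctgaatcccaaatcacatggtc
HTRA3 (chr4:8269504-8269753, plus strand): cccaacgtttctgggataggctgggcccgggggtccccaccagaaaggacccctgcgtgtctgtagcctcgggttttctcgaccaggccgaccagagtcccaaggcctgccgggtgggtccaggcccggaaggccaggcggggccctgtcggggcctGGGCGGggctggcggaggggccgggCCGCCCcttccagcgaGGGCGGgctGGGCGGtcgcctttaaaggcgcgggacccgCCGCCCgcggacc

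TGANTCA was present in the windows of PLAUR (TGAGTCA, 186 bases before the start) and PRSS3 (TGAATCA, 173 bases before it). It was in none of the other 8 windows of these genes. Of these matches only that of PLAUR has the central base of the AP-1 consensus. Across all 35116 RefSeq windows of this length 6.57% held TGANTCA, with any central base. ACGTG matched in DPP4 and in the SERPINE2 window shown, against 18.5% of all windows. Each time it lay within CACGTG, a palindrome that counts once on each strand and is also the E-box sequence. A GC box was in 6 of the 10 windows, against 42.6% of all windows. HTRA3 held 5, 1 window each of PLAU and SPINT1 held 3, DPP4 held 2, and the SERPINE2 windows held 1 and 2. TATAAA was in none of the 10 windows, against 10.7% of all. The windows differed in base composition, with 53.2% G and C in the SERPINE2 window shown, 54.0% in PRSS3, 63.2% in PLAUR, 73.6% in DPP4 and 74.8% in HTRA3 (median of all windows 58.0%). The SERPINE2 window not shown, which lies nearer the gene's start, had 75.2% G and C and no ACGTG. These matches describe the letters of the windows, and binding was not measured.

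The libraries held 29909172 to 33849262 counts. MTA1, the targeted gene, had between 1185 and 1352 counts in Ctrl libraries and between 519 and 572 in knockdown libraries. The MTA1 group stood at 43.4% of the Ctrl level of this gene (log2 fold change -1.21 ± 0.054, SE). Summed FPKM (fragment counts scaled by transcript length and library size) of 5 epithelial markers ran from 625 to 671 over the Ctrl libraries and from 608 to 669 over those labelled MTA1. Nearly all of that sum was KRT8 and KRT18, and the members differed in direction. KRT8 stood at 229 to 241 FPKM in Ctrl against 197 to 213 with the hairpin, CD44 at 25.7 to 27.4 against 46.1 to 46.4, and EPCAM at 5.62 to 6.91 against 8.75 to 10.07. KLK3, which encodes prostate-specific antigen, had 1 read in 1 library. Of 5 fibroblast markers the summed FPKM ran from 8.11 to 9.11 over Ctrl libraries and from 15.02 to 15.32 in the MTA1 group. Most of that difference was THY1, at 3.71 to 4.25 and 9.94 to 10.3 FPKM. PDGFRB lay the other way, at 0.42 to 0.46 FPKM in Ctrl and 0.29 to 0.35 with the hairpin, and LUM was at 3.90 to 4.37 and 4.33 to 4.96. PDGFRA was at or under 0.01 FPKM and DCN at or under 0.12 in every library. Whether these markers have a part in the results was not tested. Leukocyte markers summed to at most 0.90 FPKM.

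All 9 genes had enough reads to enter the fit, which covered 15423 genes. Levels between genes are compared in FPKM, which is per length. In Ctrl the order of mean FPKM was HTRA3, PLAU, PLAUR, SERPINE2, ST14, SPINT1, PLAT, PRSS3 and DPP4, and the highest was 692 times the lowest. In the MTA1 group the order was PLAUR, SERPINE2, PLAU, HTRA3, PRSS3, SPINT1, PLAT, ST14 and DPP4, and the highest was 124.5 times the lowest. No neighbours in either order had overlapping values over the 3 libraries. In such bulk RNA, fewer cells that express a gene and less RNA per cell cannot be told apart. HTRA3 thus ranked 1 in Ctrl and 4 in the MTA1 group, and PRSS3 ranked 8 and 5.

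**Figure D1:**
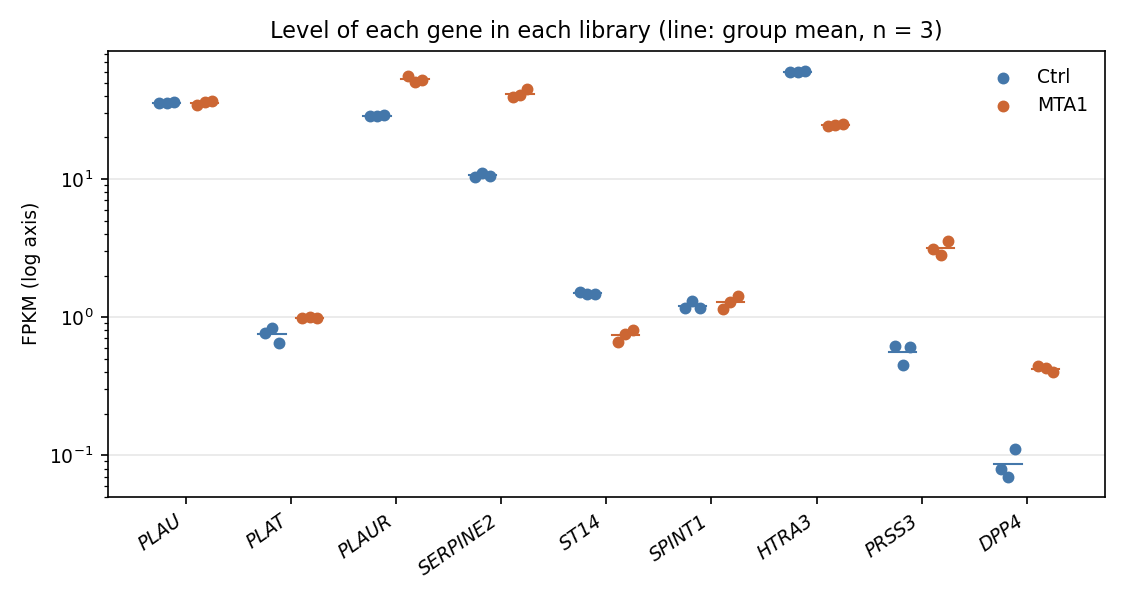
Deposited FPKM (log axis) of the 9 genes in each of the 6 libraries, with Ctrl in blue, the MTA1 group in orange and a line at each group mean (n = 3). PLAU and SPINT1 lie at the same height in both groups, whereas SERPINE2 lies near 10.7 in Ctrl and 41.6 in the MTA1 group and HTRA3 near 60.0 and 24.7.

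In CPM (read counts scaled to library size with TMM factors, not per length), 8 of the 9 genes had no overlap between the groups, 5 higher and 3 lower in the MTA1 group. Of all genes fitted, 62.7% had no such overlap. Since the genes were chosen on this contrast, nothing is read from that count.

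The activator and its receptor parted. PLAU (ENSG00000122861.16, chromosome 10), the urokinase gene, stood at 35.4, 35.5 and 36.3 FPKM in Ctrl replicates 1, 2 and 3 and at 34.2, 36.3 and 36.8 FPKM in the MTA1 replicates. The groups overlapped on this scale. In CPM they did not overlap, with 122 ± 2.00 (SD, n = 3) in Ctrl and 117 ± 4.02 in the MTA1 group. The log2 fold change was -0.06 ± 0.041 (SE), with an approximate 95% interval of -0.15 to 0.02. The sign was positive when libraries were scaled by size only or when FPKM was used, so PLAU has no stable direction in these data.

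PLAUR (ENSG00000011422.12, chromosome 19), the urokinase receptor, stood at 28.9, 28.4 and 28.9 FPKM in Ctrl and at 55.6, 50.5 and 52.1 FPKM in the MTA1 group. Every MTA1 library was above every Ctrl library. In CPM the means were 148 ± 2.55 and 260 ± 13.4, a 1.75-fold difference (log2 fold change 0.81 ± 0.043). PLAU was the larger message of the pair in Ctrl and the smaller in the MTA1 group. PLAU over PLAUR, in FPKM within a library, was 1.23, 1.25 and 1.25 in Ctrl and 0.616, 0.719 and 0.707 in the MTA1 group.

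PLAT (ENSG00000104368.19, chromosome 8), the tissue-type activator, was a low message. It had 216, 243 and 193 counts in Ctrl and 257, 275 and 259 in the MTA1 group, or 0.77, 0.83 and 0.65 against 0.98, 1.01 and 0.98 FPKM. The groups did not overlap, and the log2 fold change was 0.33 ± 0.091. The Ctrl libraries varied by 11.9% (coefficient of variation of CPM), where counting alone gives 6.78%, and those of the MTA1 group by 2.00%, where it gives 6.16%.

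SERPINE2 (ENSG00000135919.14, chromosome 2) encodes protease nexin-1, a serpin that inhibits thrombin, urokinase and tissue-type activator. It stood at 10.4, 11.1 and 10.6 FPKM in Ctrl and at 39.4, 40.9 and 44.6 FPKM in the MTA1 group. All MTA1 libraries lay far above the Ctrl libraries. In CPM the means were 111 ± 3.13 and 412 ± 23.9, a 3.71-fold difference (log2 fold change 1.89 ± 0.046). The ratio of PLAT to SERPINE2 in FPKM was 0.0743, 0.0746 and 0.0613 in Ctrl and 0.0249, 0.0247 and 0.0220 in the MTA1 group. Tissue-type activator was thus the minor message of this pair in every library, and more so in the MTA1 group.

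ST14 (ENSG00000149418.11, chromosome 11), the matriptase gene, had 226, 228 and 232 counts in Ctrl and 92, 108 and 112 in the MTA1 group. In FPKM it stood at 1.52, 1.47 and 1.47 against 0.66, 0.75 and 0.80. The groups were wide apart, and the MTA1 group was at 47.1% of Ctrl (log2 fold change -1.09 ± 0.103). The spread of the 3 MTA1 libraries, 8.97%, was near the 9.81% that counting alone gives.

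SPINT1 (ENSG00000166145.15, chromosome 15), whose Kunitz domains block matriptase, stood at 1.16, 1.30 and 1.17 FPKM in Ctrl and at 1.14, 1.28 and 1.43 FPKM in the MTA1 group. The groups overlapped, alone among the 9 genes on the CPM scale. The log2 fold change was 0.02 ± 0.107, with an approximate 95% interval of -0.19 to 0.23. A difference of either sign within that interval thus remains possible. The protease message was therefore the larger of this pair in Ctrl and the smaller in the MTA1 group. ST14 over SPINT1, in FPKM, was 1.31, 1.13 and 1.26 in Ctrl and 0.579, 0.586 and 0.559 in the MTA1 group.

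Genes on the opposite strand bear on some of these counts. SPINT1-AS1, which runs against SPINT1, had 35, 28 and 31 counts in Ctrl and 17, 18 and 15 in the MTA1 group, where SPINT1 itself had 137 to 173. In GENCODE 29 it matched 1.57% of the 50-base stretches of SPINT1 transcripts. C10orf55 matched 18.5% of those of PLAU but had only 51 to 69 counts, where PLAU had 3415 to 4086. UBE2R2-AS1, which runs against PRSS3, had 14, 13 and 20 counts in Ctrl and 15, 5 and 13 in the MTA1 group, beside 24 to 33 and 141 to 174 for PRSS3, and matched 1.99% of its 50-base stretches. It was the largest of these partners relative to its gene in Ctrl. The kit keeps strand, but which strand was counted is not known here, and reads of such partners cannot be told apart with certainty.

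HTRA3 (ENSG00000170801.10, chromosome 4), a secreted serine protease with an insulin-like growth factor binding domain, was the most abundant of the 9 messages in Ctrl. It stood at 59.6, 59.8 and 60.6 FPKM in Ctrl and at 24.4, 24.6 and 25.1 FPKM in the MTA1 group. The replicates were tight, and the MTA1 group was at 39.3% of Ctrl (log2 fold change -1.35 ± 0.039). In CPM the means were 231 ± 2.95 and 90.6 ± 0.812.

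PRSS3 (ENSG00000010438.17, chromosome 9), the mesotrypsinogen gene, had 32, 24 and 33 counts in Ctrl and 151, 141 and 174 in the MTA1 group. In FPKM it stood at 0.62, 0.45 and 0.61 against 3.13, 2.81 and 3.58. It had the widest difference of the 9, 5.40-fold (log2 fold change 2.43 ± 0.165). The Ctrl libraries varied by 17.99%, where counting alone gives 18.36%. Trypsin genes resemble each other, and 2.63% of the 50-base stretches of PRSS3 transcripts in GENCODE 29 occurred identically in another gene on the same strand, namely PRSS2, PRSS3P1 and PRSS3P4. The count data held no single entry under any of these 3 names, so their reads could not be compared. Reads that align with mismatches were not covered by this comparison.

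DPP4 (ENSG00000197635.11, chromosome 2), the CD26 peptidase, was the lowest message per length in both groups. It had 42, 38 and 59 counts in Ctrl and 215, 217 and 196 in the MTA1 group, or 0.08, 0.07 and 0.11 against 0.44, 0.43 and 0.40 FPKM. The groups were wide apart, at 4.67-fold (log2 fold change 2.22 ± 0.140). Because PRSS3, DPP4, ST14 and PLAT are low, their log2 fold changes shrank to 1.42, 0.39, -0.52 and 0.19 on the log2(FPKM + 1) scale, where the added 1 outweighs small values. DPP4 was at 1.49 with an added 0.1.

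**Figure D2:**
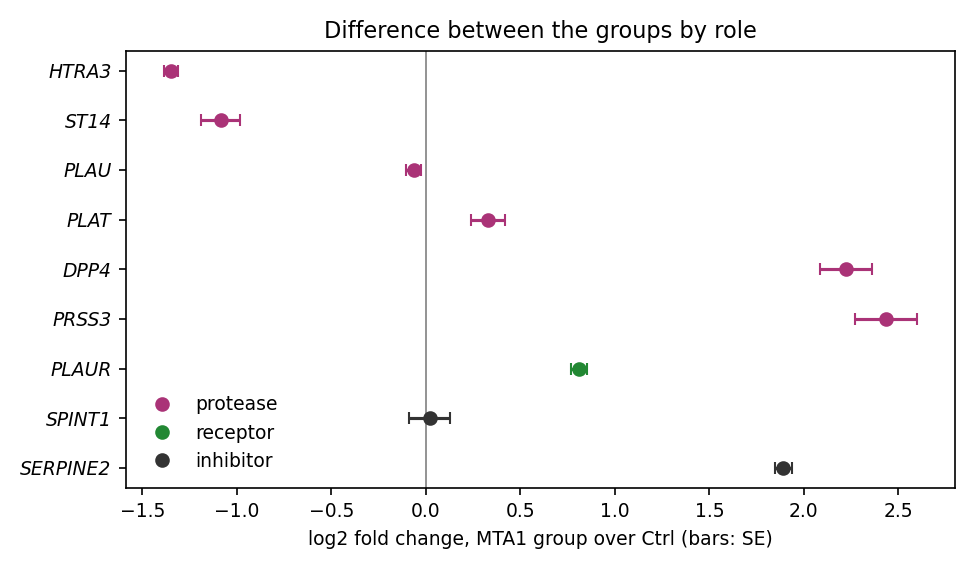
Log2 fold change of the MTA1 group over Ctrl from the edgeR fit, with SE bars (n = 3 libraries a group), coloured by role. The 6 proteases run from -1.35 (HTRA3) to 2.43 (PRSS3), the receptor PLAUR is at 0.81, and the inhibitors are at 0.02 (SPINT1) and 1.89 (SERPINE2).

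The 6 proteases went in both directions, and their sum was lower in the MTA1 group while that of the 2 inhibitors was higher. These sums were chosen after the values were seen. The 6 protease messages summed to 98.0, 98.1 and 99.7 FPKM in the Ctrl libraries and 63.9, 65.9 and 67.7 FPKM in those labelled MTA1. HTRA3 alone made up 60.8% ± 0.0752 (SD, n = 3) of that sum in Ctrl and 37.5% ± 0.607 in the MTA1 group. The 2 inhibitors summed to 11.5, 12.4 and 11.8 FPKM in the Ctrl libraries and 40.5, 42.2 and 46.0 FPKM in those labelled MTA1, of which SERPINE2 held 89.8% ± 0.271 and 97.0% ± 0.154. The 6 proteases over the 2 inhibitors was thus 8.29 ± 0.343 in Ctrl and 1.54 ± 0.0567 in the MTA1 group. Without HTRA3 the 5 remaining proteases summed to 38.6 ± 0.426 and 41.1 ± 1.58 FPKM, and the ratio was 3.25 ± 0.140 and 0.960 ± 0.0298. The ratio was thus 5.39 times as high in Ctrl as in the MTA1 group with HTRA3 and 3.38 times without it. Other serine protease inhibitors were left out of the sum, such as SLPI at 353 FPKM in Ctrl and 411 in the MTA1 group. SERPINB6, also left out, stood at 40.3 and 35.1 FPKM. The ratio thus describes these member genes only, and whether the 2 inhibitors act on each of the 6 proteases was not tested. These sums add messages, and proteins and activities were not measured.

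**Figure D3:**
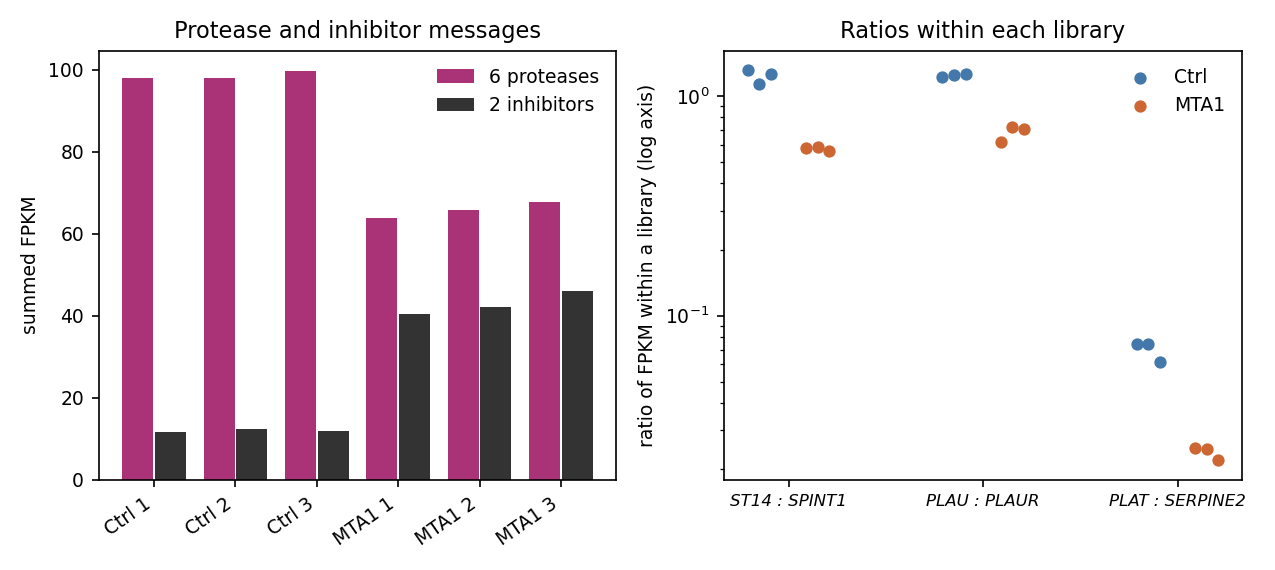
Left, summed FPKM of the 6 proteases and the 2 inhibitors in each library. Right, the ratio of FPKM of 3 gene pairs within each library (log axis), with Ctrl in blue and the MTA1 group in orange. The protease bars are near 98.6 in Ctrl and 65.8 in the MTA1 group, the inhibitor bars near 11.9 and 42.9, and all 3 ratios are lower in each MTA1 library than in any Ctrl library.

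Other genes of the pathway gave a wider view. Their lists were chosen with earlier results of these data known, so nothing is read from their shares against that of all genes. Of 191 listed, 108 could be tested. In edgeR's quasi-likelihood test at an adjusted p under 0.05, 52 rose and 24 fell in the MTA1 group (70.4% of those tested). Of all genes tested 58.1% passed, 29.5% higher and 28.6% lower, or 4550 and 4404 genes. With libraries scaled by size only the split was 5376 and 3574, and on log2(FPKM + 0.1) with limma 5043 and 3345. The median log2 fold change of the 108 genes was 0.21, against 0.002 over all genes.

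Among 18 tested genes of the plasminogen system, 12 rose and 2 fell (77.8% past the threshold against 58.1% of all genes). The median of the 18 was 0.37 on the log2 scale. Plasminogen itself (PLG) had 1 read in 1 of the 6 libraries. The surface plasminogen receptor pair ANXA2 (0.86 ± 0.041) and S100A10 (0.34 ± 0.040), chosen after their values were seen, rose as well. Both have pseudogenes that can share reads. The integrin subunits ITGA5 (1.11 ± 0.046) and ITGB3 (0.99 ± 0.16) rose, of which ITGA5 pairs with ITGB1 as a fibronectin receptor. STC1 (1.89 ± 0.075), a secreted glycoprotein hormone that is not a part of plasminogen activation, had the largest rise of this list. F12, coagulation factor XII (-0.70 ± 0.11), and the broad inhibitor A2M (-0.46 ± 0.15) fell, and the call of A2M was lost without MTA1 replicate 2 (edgeR adjusted p = 0.052). SERPINB2, or PAI-2, chosen after its values were seen, stood at 0.32 ± 0.28 and did not pass.

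Membrane-anchored serine proteases other than ST14 were few. Of 26 listed, 6 could be tested. Of these, 3 rose and 2 fell (83.3% past the threshold against 58.1% of all genes, median log2 fold change 0.08). PRSS21, or testisin, rose from 29 ± 0.448 to 35.5 ± 0.500 FPKM (0.22 ± 0.042). TMPRSS3 (0.82 ± 0.089) and the proprotein convertase PCSK7 (0.28 ± 0.059) rose too. PRSS8, or prostasin, a partner of matriptase in epithelia, fell with 19, 18 and 16 counts in Ctrl and 5, 4 and 6 in the MTA1 group (-1.75 ± 0.36, edgeR adjusted p = 3.2e-04). It lay below the level required for naming and was chosen after its values were seen. SPINT2, the second Kunitz inhibitor of matriptase and prostasin, fell from 0.503 ± 0.0473 to 0.323 ± 0.0416 FPKM (-0.71 ± 0.16, edgeR adjusted p = 6.1e-04).

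Secreted trypsin-like proteases and HTRA genes split evenly. Of 18 tested, 7 rose and 7 fell (77.8% past the threshold against 58.1% of all genes, median log2 fold change -0.06). The complement protease C1R rose from 14.7 ± 0.480 to 40.9 ± 0.495 FPKM (1.41 ± 0.041). CFB, complement factor B (1.10 ± 0.088), and PRSS53 (1.16 ± 0.19) rose as well. Coagulation factor X, F10 (-1.07 ± 0.14), and the mitochondrial HTRA2 (-0.31 ± 0.060) fell. HTRA1, the secreted relative of HTRA3, rose from 22.2 ± 1.54 to 34.8 ± 1.56 FPKM (0.58 ± 0.050, edgeR adjusted p = 5.6e-09), opposite in sign to HTRA3, and was chosen after its values were seen. HTRA3 was the higher of these 2 in Ctrl and HTRA1 the higher in the MTA1 group.

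Inhibitors of serine proteases outside the 9 genes went both ways. Of 27 tested, 10 rose and 9 fell (70.4% past the threshold against 58.1% of all genes, median log2 fold change 0.15). Elafin (PI3), an elastase inhibitor, rose from 4.37 to 13.7 FPKM (1.58 ± 0.12) and TFPI, which blocks the tissue factor pathway, from 5.70 to 9.57 FPKM (0.68 ± 0.051). SERPINH1 (1.30 ± 0.039), a serpin by fold that serves as a collagen chaperone and inhibits no protease, rose too. SERPINB8 (-0.64 ± 0.098) and the neutrophil elastase inhibitor SERPINB1 (-0.50 ± 0.051) fell beside SPINT2.

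More of the relatives and partners of DPP4 rose than fell, some of them by little. Of 17 tested, 10 rose and 2 fell (70.6% past the threshold against 58.1% of all genes, median log2 fold change 0.21). The aminopeptidase ANPEP rose from 22.4 to 44.3 FPKM (0.92 ± 0.040), the lysosomal TPP1 by 0.85 ± 0.080 and CAV1, a membrane scaffold that DPP4 can bind, by 0.79 ± 0.059. DPP8 (-0.48 ± 0.068) and PRCP (-0.24 ± 0.057), cytosolic and lysosomal peptidases, fell, and the call of PRCP was lost on both FPKM scales (limma adjusted p = 0.119 and 0.105). FAP, the closest relative of DPP4 and encoded near it on chromosome 2, rose from 0.319 ± 0.0803 to 1.62 ± 0.274 CPM (2.32 ± 0.27, edgeR adjusted p = 3.7e-07). It was below the level required for naming and was chosen after its values were seen. FAP is also expressed by activated fibroblasts, and the 5 fibroblast markers did not share a direction: THY1 was higher and PDGFRB lower in every MTA1 library, the ranges of LUM and DCN overlapped between the groups, and PDGFRA had 1 to 5 counts per library. Their part in the result was not tested. ACP3, an acid phosphatase and no peptidase, is 1 of the 10 that rose. DPP7 rose by little (0.21 ± 0.041), and DPP9 (0.09 ± 0.051) did not pass. Both were chosen after their values were seen.

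Substrates and receptors made up the last list. Of 22 tested, 10 rose and 2 fell (54.5% past the threshold against 58.1% of all genes, median log2 fold change 0.20). CDCP1, a membrane protein that matriptase and plasmin cleave, rose from 17.1 ± 0.988 to 33.0 ± 1.33 CPM (0.95 ± 0.057), and the receptor EGFR from 13.5 ± 0.536 to 27.7 ± 0.630 CPM (1.04 ± 0.057). MST1 (2.16 ± 0.15), the ligand precursor that surface proteases activate, rose, but its copies MST1L and MST1P2 can share its reads. The chemokine receptor CXCR4, whose ligand DPP4 trims, fell (-0.59 ± 0.046). The hepatocyte growth factor receptor MET (0.08 ± 0.044) and F2RL1 (0.01 ± 0.17), the protease-activated receptor that matriptase cleaves, did not pass and were chosen after their values were seen. The edgeR adjusted p of every named gene described as rising or falling was at most 0.012.

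**Figure D4:**
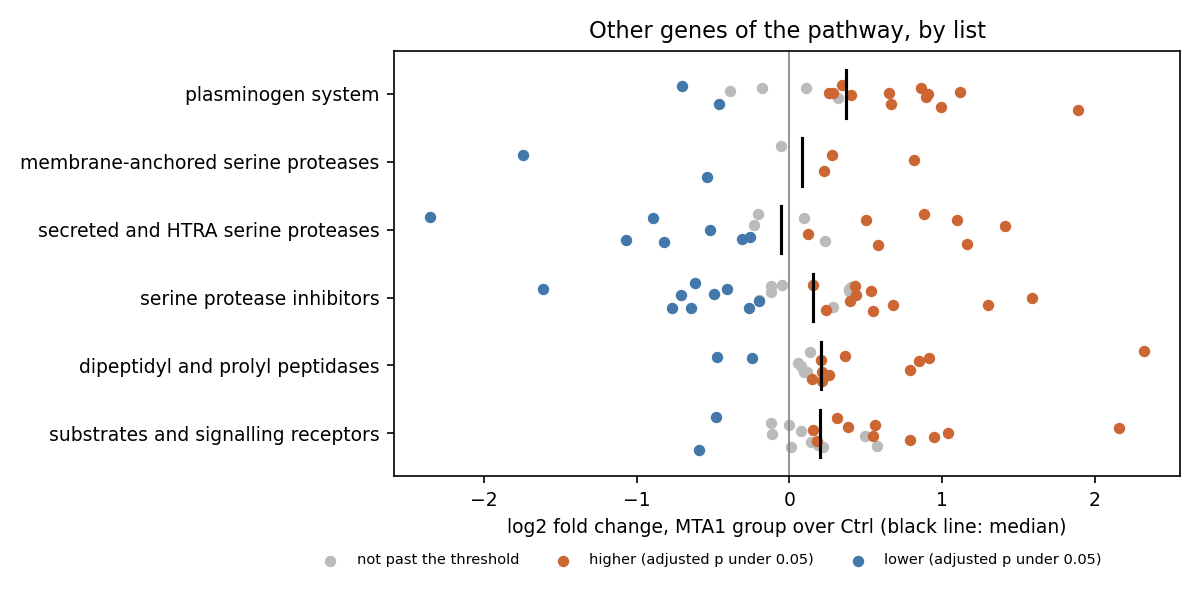
Log2 fold change of the MTA1 group over Ctrl for the 108 other pathway genes tested, by list, with orange for higher and blue for lower at an adjusted p under 0.05 (edgeR) and a black line at each median. The plasminogen system has 12 orange and 2 blue points, the inhibitors 10 and 9, and the secreted proteases 7 and 7. Of all genes tested, 58.1% passed.

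Likeness of pattern was measured as the root mean square difference of centred log2 CPM over the 6 libraries, among 84 pathway genes with a mean of at least 2 CPM. SERPINE2 was nearest to STC1 (0.134) and PLAUR to TPP1 (0.0644). ST14 and HTRA3 were both nearest to F10 (0.137 and 0.178), and PRSS3 and DPP4 both to MST1 (0.331 and 0.261). PLAT was nearest to CRIM1 (0.0683), PLAU to SERPINA1 (0.0402) and SPINT1 to DPP9 (0.0923). With 2 groups of 3 libraries this measure mostly matches genes of like fold change.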

How the data were processed

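Per the labels' protocols, total RNA was made into stranded libraries and sequenced as paired reads. The authors deposited raw read counts per gene and FPKM rounded to 2 decimals. Aligner, counting tool, strand setting and genome build: not given in the sources used here. The shMTA1 columns match the MTA1 titles, and the NC columns were taken as Ctrl by elimination.

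Counts were fitted in R 4.3.3 with edgeR 4.0.16 (filterByExpr, TMM, quasi-likelihood F test, group only, 2-sided, Benjamini-Hochberg over 15423 genes, threshold 0.05), after a check on simulated data. Alternatives used DESeq2 1.42.0 and limma 3.58.1. The members and lists were chosen with earlier results of these data known. Named genes are the members, MTA1, SPINT2 and PLG, up to 3 per list and direction with the largest change at a mean of 2 CPM or more, and the nearest profiles. Some genes that the rule names are not reported here. Of the 191 listed genes, 168 were in the table, 1 through an older symbol. Promoters came from RefSeq and 50-base matches from GENCODE 29.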

Additional observations from a re-analysis of the deposited data

How the results depend on the processing

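PLAU had the opposite sign, near 0, with scaling by library size only (0.0033), log2(FPKM + 0.1) (0.0020) and log2(FPKM + 1) (0.0020). SPINT1, whose groups overlap, ran from -0.06 to 0.10 over the 15 alternatives. The other 7 members kept their sign in all 15. The number of other pathway genes past the threshold was 76, 78 with the replicate number as a block (replicate block), 70 with the DESeq2 Wald test and 80 with library size only. Replicate numbers did not pair the libraries (correlations of same-numbered deviations 0.0666, -0.0207 and 0.0191). Scaling by library size only moved the median of all genes from 0.002 to 0.07 and gave 5376 genes higher and 3574 lower, against 4550 and 4404. Of 450 values of 30 other named genes under the alternatives, 3 lost the call (A2M and PRCP) and none changed sign. Depth limits DPP4, PRSS3 and PRSS8, which had 16 to 59 counts in each Ctrl library.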
